A study of Sus scrofa with 9 samples.

Results

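MEST and GRB10 are a pair of imprinted genes that went in opposite directions between the breeds of this series: MEST was almost absent from Tibetan pig muscle and abundant in the other breeds, while GRB10 was highest in Tibetan pig muscle. They were taken as the 2 genes, of 19643 entries in the deposited table of FPKM (fragments scaled for transcript length and for library size), whose identifier carries either symbol, and each symbol has 1 entry (ENSSSCG00000016554 for MEST, ENSSSCG00000015631 for GRB10). Because the pair was chosen with its levels in these libraries known, those levels are described here without a test.

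The study compared RNA from the longissimus dorsi, a long muscle along the spine, of embryonic pigs of 3 breeds with 3 libraries each. Tibetan and Wujin are described as indigenous Chinese breeds and Large White as an introduced breed, with no genetic alteration or treatment named for any group. The labels give no gestational day, and they do not state that each library is a separate animal. All p-values therefore measure spread between these 9 libraries alone, which may be technical. The breed labels cannot be told apart from any difference in the age of the embryos.

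In imprinted genes, the copy inherited from one parent is silenced, and many genes under this control act on growth before birth. MEST, also called PEG1, encodes a member of the alpha/beta-hydrolase fold family, is transcribed from the paternal copy in mammals studied so far, and is a gene of embryonic mesoderm and of tissues that are still growing. GRB10 encodes an adaptor with an SH2 domain that binds the activated insulin and IGF1 receptors and restrains their signal. In most tissues of the mouse it is transcribed from the maternal copy, and mice without that copy are larger and more muscular. The table holds no information on the parental copy, so these values are total transcript levels.

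All 9 libraries expressed skeletal muscle genes, and the marker sums separated the Tibetan libraries from the others. The summed FPKM of 5 mature fast fibre genes ranged from 9271 to 14402 in Tibetan, from 584 to 650 in Wujin and from 278 to 382 in Large White libraries. For 4 sarcomere genes of the developing muscle the sum ranged from 85.6 to 109 in Tibetan, from 10824 to 12384 in Wujin and from 9798 to 11689 in Large White libraries. Pearson correlations of log2(FPKM + 1) over genes, which are not independent replicates, were 0.940 to 0.968 within breeds, 0.697 to 0.785 between Tibetan and other libraries, and 0.890 to 0.955 between Wujin and Large White libraries. Total fragment counts are unknown, but the steps between low FPKM values put the relative depths of all 9 libraries within 1.22 times that of Large White 1. Since FPKM in a library share one total, fold changes are also given relative to the median entry, which was -0.77 (log2) for Tibetan against Large White, -0.20 for Wujin against Large White and -0.55 for Tibetan against Wujin.

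MEST was close to absent in the Tibetan breed only. The 3 Tibetan libraries had 0.232, 0.348 and 0.358 FPKM, with a mean of 0.313 ± 0.0705 (SD, n = 3). Wujin 1 had 21.5 FPKM, and the pair of Wujin libraries whose columns carry no distinct number (a and b below) had 30.2 and 38.1 FPKM, with a mean of 29.9 ± 8.33 (SD, n = 3). The Large White libraries had 46.8, 44.6 and 52.8 FPKM, with a mean of 48.1 ± 4.29 (SD, n = 3). Wujin values are always listed in the order 1, a, b. The order of the breeds was Tibetan, Wujin, Large White, and no library of one breed reached the range of another. The highest Tibetan value was below 1 FPKM, and no library was listed at 0. In bulk muscle, fewer cells that transcribe MEST and less MEST RNA per cell cannot be told apart.

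As mean FPKM, MEST was 154 times as high in Large White and 95.8 times as high in Wujin as in Tibetan libraries, and 1.61 times as high in Large White as in Wujin libraries. On the log2(FPKM + 1) scale, which understates the change of a gene this low, the fitted difference was -5.22 (SE 0.19) for Tibetan minus Large White, or -4.45 relative to the median entry. Tibetan minus Wujin was -4.52 (relative -3.97). Wujin minus Large White was -0.70 (relative -0.50). Of the 13106 entries whose mean reached 1 FPKM, 40 (0.305%) had a lower fitted difference than MEST between Tibetan and Large White, and 53 (0.404%) between Tibetan and Wujin. Between Wujin and Large White 1278 entries (9.75%) lay lower. Within its own library, MEST stood at percentiles 5.99, 8.15 and 8.26 of the tested entries in Tibetan muscle, 83.9, 87.6 and 90.1 in Wujin muscle, and 91.4, 91.3 and 92.6 in Large White muscle.

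GRB10 ran the other way between Tibetan and the other breeds, and over a smaller range. Its Tibetan libraries had 33.4, 28.2 and 40.8 FPKM, with a mean of 34.2 ± 6.31 (SD, n = 3). The Wujin libraries had 11.0, 10.3 and 9.18 FPKM in Wujin, with a mean of 10.2 ± 0.943 (SD, n = 3). The Large White libraries had 11.3, 11.2 and 11.5 FPKM, with a mean of 11.4 ± 0.152 (SD, n = 3). Every Tibetan library was above every library of the other breeds. Wujin and Large White did not overlap either, but their closest libraries, at 11.0 and 11.2 FPKM, differed by less than the SD of the Wujin libraries.

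The mean GRB10 level in Tibetan libraries was 3.00 times that in Large White and 3.36 times that in Wujin libraries. The fitted log2 difference was 1.49 (SE 0.14) for Tibetan minus Large White and 1.64 for Tibetan minus Wujin, or 2.26 and 2.19 relative to the median entry. Wujin minus Large White was -0.15, which lies 0.046 above the median entry, and it was 0.067 with median-ratio scaling and 0.033 with quantile normalization, so its direction depended on the scaling. Among the tested entries 644 (4.91%) had a higher fitted difference than GRB10 between Tibetan and Large White, 525 (4.01%) between Tibetan and Wujin, and 5917 (45.1%) between Wujin and Large White. GRB10 stood at percentiles 90.1, 89.8 and 91.7 of the tested entries in the Tibetan libraries, at 71.3, 65.3 and 61.8 in Wujin, and at 65.6, 65.8 and 65.5 in the Large White libraries.

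**Figure D1:**
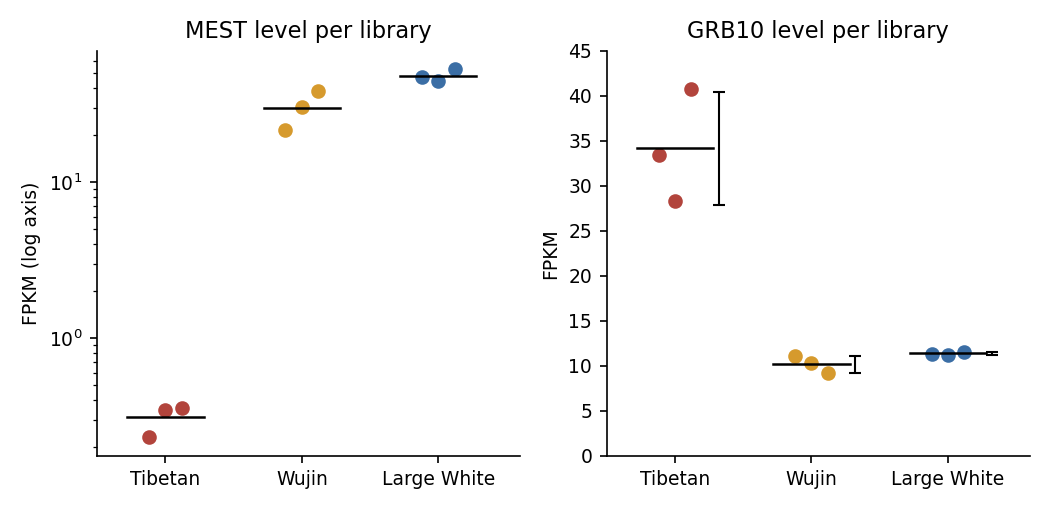
FPKM of MEST (left, log axis) and GRB10 (right, linear axis) in the 9 libraries by breed, with 1 point per library and a bar at the breed mean, and with the SD for GRB10. The 3 Tibetan points lie below 1 FPKM for MEST, where all others are at 21.5 or more, and between 28.2 and 40.8 FPKM for GRB10, where all others are at 11.5 or less.

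Breeds without overlapping libraries were frequent in this table as a whole. Between Tibetan and Large White, 66.5% of the tested entries were lower without any overlap of libraries, and 14.1% were higher without overlap. The corresponding shares were 53.5% and 14.2% between Tibetan and Wujin, and 35.3% and 9.67% between Wujin and Large White. An absence of overlap in the direction of MEST was therefore common in these libraries. Few entries had a difference of its size, but MEST was chosen with its levels known, so that rank is only a description.

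The spread within a breed differed between the genes. For MEST the highest library of a breed was 1.55 times the lowest in Tibetan, 1.78 times in Wujin and 1.19 times in Large White muscle, with coefficients of variation of 22.5%, 27.8% and 8.92%. GRB10 had coefficients of variation of 18.5%, 9.27% and 1.33%. Large White was the least variable breed for both genes. Within breeds the pair had no common relation: the library with the most MEST had the least GRB10 in Wujin (Wujin b) and the most GRB10 in Large White (Large White 3) and in Tibetan muscle (Tibetan 3).

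The ratio of MEST to GRB10 within a library does not depend on how libraries are scaled. Its log2 was -7.17, -6.34 and -6.83 in the Tibetan libraries, with a mean of -6.78 ± 0.42 (SD, n = 3). In FPKM, GRB10 exceeded MEST there by 144 times, 81.1 times and 114 times. The log2 ratio was 0.96, 1.56 and 2.05 in Wujin, with a mean of 1.52 ± 0.55 (SD, n = 3). In Large White libraries it was 2.04, 1.99 and 2.20, with a mean of 2.08 ± 0.11 (SD, n = 3). The sign of the ratio separated Tibetan muscle, where GRB10 was the higher of the pair per unit length, from Wujin and Large White muscle, where MEST was. Wujin and Large White overlapped in this ratio, since Wujin b lay within the Large White range. Over the 9 libraries, log2(FPKM + 1) of the pair had a Pearson r of -0.96, a description that follows the breed means and shares each library's total.

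**Figure D2:**
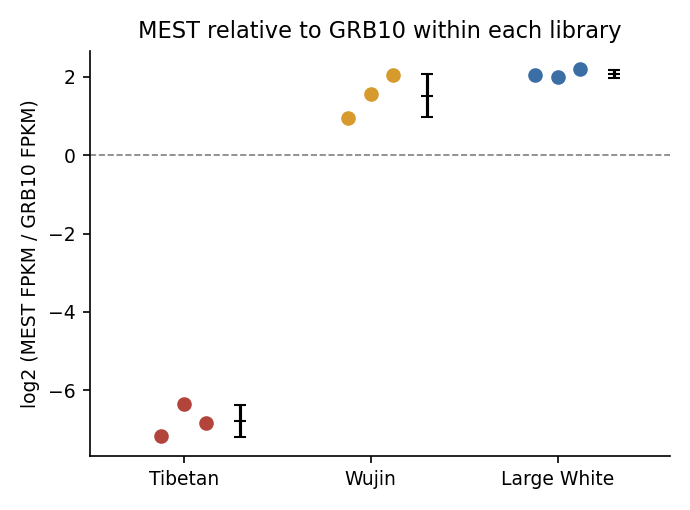
Log2 ratio of MEST to GRB10 FPKM in each of the 9 libraries, by breed, with a line at a ratio of 1 (log2 of 0). The Tibetan libraries lie between -7.17 and -6.34, and the Wujin and Large White libraries between 0.96 and 2.20.

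The tested genes beside MEST and GRB10 in the pig genome were lower in Tibetan libraries, as most entries were. Of the 5 annotated neighbours on each side of either gene (RefSeq, used for order only), 5 were measured above the filter, and all 5 were lower in Tibetan than in Large White libraries, as were 63.2% of all tested entries (76.2% called in either direction). All 5 were also lower than in Wujin libraries, against 53.9% of all entries (67.7% called in either direction). Of these 5 only COPG2 reached 1 FPKM in the Tibetan mean. CPA1, CEP41, FIGNL1 and DDC passed the filter only through the breeds in which they were high, so they had to differ, and their values are given without a p. Limma called 0 of 5 between Wujin and Large White (1 higher and 2 lower at an unadjusted p under 0.05), where 6.52% of all entries were called. Called means an adjusted p under 0.05 from limma with Benjamini-Hochberg adjustment over all 13106 entries.

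Next to MEST, COPG2, a coat protein subunit of vesicle transport whose gene overlaps MEST, had 3.06, 3.11 and 2.50 FPKM in Tibetan, 9.07, 12.1 and 12.3 FPKM in Wujin, and 15.0, 14.3 and 14.7 FPKM in Large White libraries. Its order of breeds was that of MEST, with a difference of -1.24 (SE 0.14) for Tibetan minus Large White relative to the median entry (adjusted p = 1.64e-06). The strand setting of the authors' counting is not given in the sources used here, so reads from the overlap of the pair cannot be told apart. CPA1, a carboxypeptidase gene, had 20.9 ± 2.12 FPKM in Large White and 0.470 ± 0.233 FPKM in Tibetan libraries (relative -3.13, SE 0.16), and CEP41, a centrosomal protein gene, had a relative difference of -0.52. Unlike MEST, CPA1 was not lower in Wujin (27.4 ± 4.15 FPKM, SD, n = 3) than in Large White libraries.

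Beside GRB10, whose own level was higher in Tibetan libraries, both neighbours above the filter had lower values there. Both lie on the same side of GRB10, and no gene on its other side was tested. FIGNL1, a DNA repair ATPase gene, had 0.189 ± 0.108 FPKM in Tibetan, 1.70 ± 0.341 in Wujin and 2.81 ± 0.555 in Large White libraries (relative -0.90). DDC, the decarboxylase that makes dopamine and serotonin, had 0.643 ± 0.244, 1.58 ± 0.419 and 1.51 ± 0.454 FPKM (SD, n = 3). Its fitted difference was -0.61 for Tibetan minus Large White, and 0.14 with quantile normalization. KLF14 and VSTM2A stayed under the filter, and no measured neighbour overlapped GRB10.

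Most of the other imprinted genes were lower in Tibetan muscle, as MEST was and as most entries were. Of 49 listed imprinted genes other than the pair, 26 were matched by symbol and 21 passed the filter on low values. In Tibetan against Large White libraries 1 of these 21 was called higher, 17 lower and 3 were not called, so 85.7% were called against 76.2% of all entries, of which 63.2% were lower. Of these 21 genes 7 were below 1 FPKM in the mean of one breed and passed the filter only through another, namely RTL1, NAP1L5, DIRAS3, PPP1R9A, CALCR and DDC, called lower, and SLC38A4, called higher. Among the other 14 genes 11 were called lower and 3 were not called. Over all 21 genes, with those 7 included, the median fitted difference was -1.46, beside -0.77 for all entries. Tibetan against Wujin, which shares the Tibetan libraries, gave 1 higher, 17 lower and 3 not called, with a median of -1.28 beside -0.55. Between Wujin and Large White 0 of 21 were called by limma (3 higher and 3 lower at an unadjusted p under 0.05), with a median of -0.10 beside -0.20. With median-ratio scaling the counts were 4 higher and 12 lower against Large White, and 4 higher and 16 lower against Wujin. For all entries that scaling gave 4304 higher and 4139 lower calls in place of 1703 and 8280 against Large White, and 4109 and 3835 in place of 1809 and 7062 against Wujin.

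Paternally expressed genes, the class of MEST, made up 11 of the 21 genes, of which 10 were called lower and 1 higher in Tibetan than in Large White libraries, beside 63.2% lower and 13.0% higher over all entries. SGCE, which encodes a sarcoglycan of the muscle membrane, had 2.31, 2.38 and 1.53 FPKM in Tibetan libraries against 38.9, 33.2 and 35.4 in Large White libraries (relative -2.82, SE 0.22, adjusted p = 9.98e-07). PLAGL1, a zinc finger regulator of an imprinted gene network, had 2.96 ± 0.723 FPKM against 45.5 ± 2.47 (relative -2.80, adjusted p = 6.13e-07). NDN, a MAGE family growth suppressor, had 8.26 ± 0.299 FPKM against 61.3 ± 7.31 (relative -1.97, adjusted p = 1.40e-07). In Wujin libraries these genes were at 26.3 ± 8.15, 38.8 ± 9.98 and 68.8 ± 3.78 FPKM (SD, n = 3). All 3 fell by less than MEST, and none was called between Wujin and Large White.

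RTL1, a retrotransposon-derived gene of placenta and fetal muscle, was the paternally expressed gene nearest to 0 in Tibetan muscle, at 0.0186, 0.0338 and 0.0225 FPKM. It had 8.20, 5.79 and 3.12 FPKM in Wujin and 2.91, 2.70 and 3.45 in Large White libraries (Tibetan minus Large White relative -1.20). PEG3, a zinc finger gene, had 3.06 ± 0.142 FPKM in Tibetan and 14.7 ± 1.71 in Large White libraries (relative -1.17, adjusted p = 1.16e-06). SNRPN (-0.86), INPP5F (-0.69), IMPACT (-0.69), NAP1L5 (-0.32) and DIRAS3 (-0.07) were also called lower, with smaller relative differences. DIRAS3 was not called with median-ratio scaling (-0.36, adjusted p = 0.144), and the class then had 9 lower, 1 higher and 1 not called, or 8, 1 and 2 with quantile normalization. The exception was SLC38A4, an amino acid transporter gene, whose values lay in the direction of GRB10, and which passed the filter only through the Tibetan libraries. It had 7.68, 10.2 and 3.10 FPKM in Tibetan libraries, at most 0.181 in Wujin and at most 0.674 in Large White libraries (relative 2.96, SE 0.31).

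Of 8 tested maternally expressed genes, the class that GRB10 belongs to in most mouse tissues, limma called 5 lower in Tibetan than in Large White libraries, 0 higher (also 0 at an unadjusted p under 0.05) and 3 in neither direction. That is 62.5% lower, near the 63.2% of all entries. PHLDA2, a suppressor of placental growth, had 10.1 ± 2.26 FPKM in Tibetan and 56.2 ± 11.3 in Large White libraries (relative -1.59, adjusted p = 5.36e-06). PPP1R9A (-1.31), OSBPL5 (-0.32) and CALCR (-0.24) were lower by smaller relative amounts. IGF2R, the receptor that clears IGF2, had 6.82 to 10.8 FPKM in Tibetan and 15.7, 17.8 and 21.1 in Large White libraries (adjusted p = 0.0390). Its call did not survive removal of single libraries, with an adjusted p of 0.0502, 0.128 and 0.0622 without Tibetan 1, 2 and 3, 0.0550, 0.0778 and 0.108 without Large White 1, 2 and 3, and 0.0519 without Wujin b. The 3 genes not called were ASB4 (relative 0.58), UBE3A (0.47) and TFPI2 (0.61), and with median-ratio scaling all 3 were called higher, at 0.67, 0.63 and 0.76, which made that class 3 higher, 2 lower and 3 not called. UBE3A was also called without Wujin 1 (adjusted p = 0.0260). GRB10, at 2.26, lay above every tested maternally expressed gene in relative difference. IGF2, H19, DLK1, MEG3, PEG10, CDKN1C and GNAS were not analysed here.

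**Figure D3:**
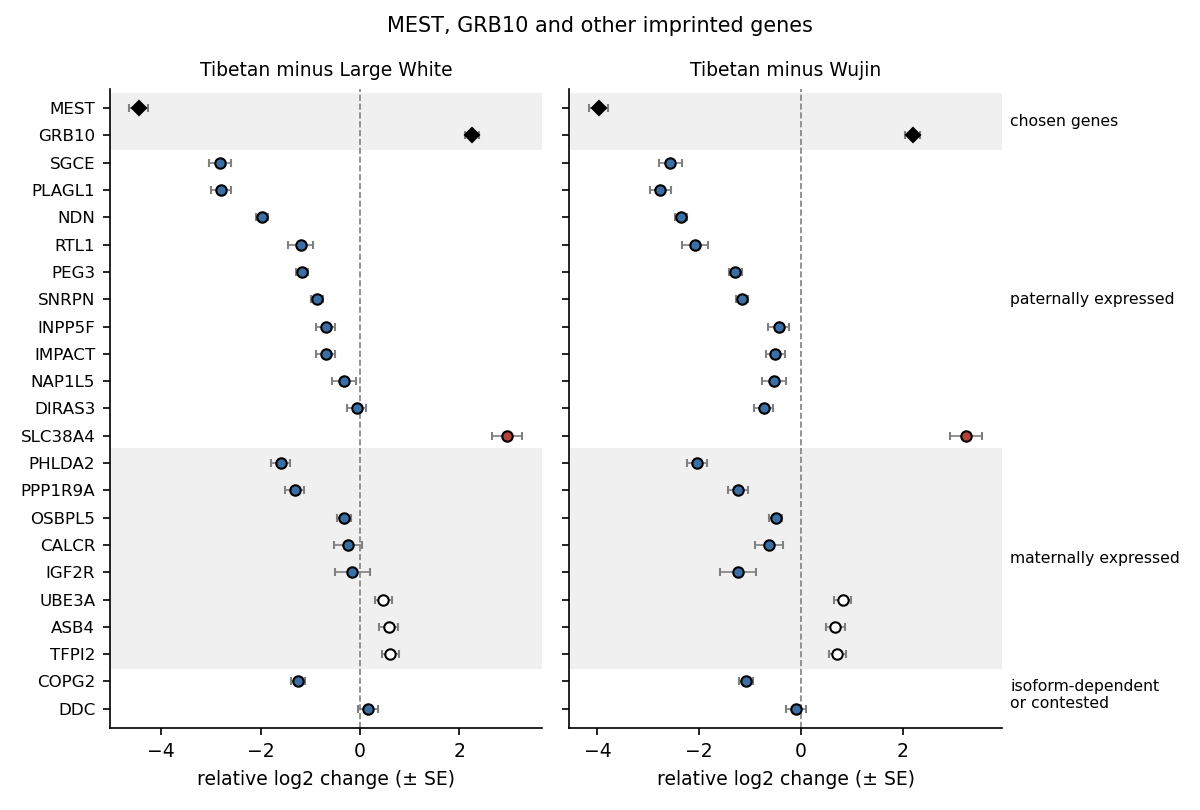
Relative log2 difference (fitted difference minus the median of all tested entries, with SE) of MEST, GRB10 and the 21 tested imprinted genes for Tibetan minus Large White (left) and Tibetan minus Wujin (right), in blue for genes called lower, red for called higher, white for not called and black diamonds for the chosen pair. On the left MEST at -4.45 is at the low end, and SLC38A4 at 2.96 and GRB10 at 2.26 are at the high end.

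The insulin and IGF pathway, in which GRB10 acts at the receptor, had no common direction. Of 58 listed genes 46 were matched and 41 passed the filter. Tibetan against Large White gave 5 higher, 23 lower and 13 not called (68.3% called, beside 76.2% of all entries), with a median of -0.66 beside -0.77. Tibetan against Wujin gave 5 higher, 21 lower and 15 not called (63.4%, beside 67.7%), with a median of -0.41 beside -0.55. With median-ratio scaling the counts were 16 higher and 11 lower against Large White, and 16 higher and 14 lower against Wujin. Without further scaling the share of called genes was slightly below the background in both comparisons. With median-ratio scaling 27 and 30 of the 41 genes were called, and 8443 and 7944 of all entries in place of 9983 and 8871. Both the share against the background and the split by direction therefore depended on the scaling.

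Among the ligands only IGF1 could be measured, at 2.84, 4.72 and 4.22 FPKM in Tibetan, 5.36, 11.2 and 12.1 in Wujin, and 12.1, 24.1 and 14.8 in Large White libraries. The breed order was that of MEST (relative -1.06, SE 0.32, adjusted p = 0.000648 for Tibetan minus Large White), although Wujin and Large White overlapped. IGF1 was opposite to GRB10 only in that its Tibetan level was the lowest. Of 5 binding proteins limma called 4 lower in Tibetan than in Large White libraries (80.0%, beside 63.2% of all entries). With median-ratio scaling, where IGFBP7 was at 0.059, and also with quantile normalization, 3 were called lower. The lowest were IGFBP5, which is abundant in developing muscle (relative -1.42, adjusted p = 0.000111), and IGFBP4 (relative -1.14, adjusted p = 2.29e-06).

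The receptors that GRB10 binds showed no call in its direction without further scaling, but INSR did with median-ratio scaling. INSR, the insulin receptor, had 6.47, 3.88 and 5.03 FPKM in Tibetan, 1.34, 3.65 and 4.58 in Wujin, and 3.38, 3.53 and 4.08 in Large White libraries, with overlapping ranges (adjusted p = 0.275 for Tibetan minus Large White). With median-ratio scaling limma called INSR higher in Tibetan than in Large White (1.17, adjusted p = 0.00224) and Wujin libraries (1.24, adjusted p = 0.00175). IGF1R stayed lower against both with that scaling (-0.58 and -0.44). IGF1R, the IGF1 receptor, was low in all breeds, at 0.456 ± 0.173 FPKM in Tibetan, 1.45 ± 0.396 in Wujin and 1.98 ± 0.281 in Large White libraries (SD, n = 3), and passed the filter only through the other breeds (relative -0.27). GRB10 thus stood at 34.2 FPKM beside 5.13 FPKM of INSR and 0.456 FPKM of IGF1R in the Tibetan mean, and at 11.4 beside 3.67 and 1.98 in the Large White mean.

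Other genes that work at the receptor differed in direction, and some of their calls depended on the scaling. The adaptor and docking proteins SHC1 (relative -1.33), GAB1 (-0.90) and GRB2 (-0.73) were called lower in Tibetan than in Large White libraries. They were also called lower with median-ratio scaling (-1.21, -0.88 and -0.57). IRS1, a docking protein of the insulin receptor, had 12.7, 10.2 and 26.0 FPKM in Tibetan and 8.70, 8.38 and 10.3 in Large White libraries (relative 1.44, adjusted p = 0.0690, and 0.0214 without Tibetan 2). It was called higher with median-ratio scaling (1.57, adjusted p = 0.000833). Of 7 tested genes listed with GRB10 as other adaptors and inhibitors at the receptor or as its partners, limma called 5 lower, 0 higher (also 0 at an unadjusted p under 0.05) and 2 in neither direction, or 71.4% lower beside 63.2% of all entries. With median-ratio scaling, and also with quantile normalization, none of the 5 lower calls was left, and the group had 2 higher, 0 lower and 5 not called. The relative differences were small for SOCS1 (-0.36), SH2B2 (-0.29), SH2B3 (-0.25), GIGYF2 (-0.01) and PTPN1 (0.02). The 2 genes called higher with median-ratio scaling were GIGYF1, which binds GRB10 (0.72), and SH2B1 (0.59, adjusted p = 0.00889). GIGYF1 was below 1 FPKM in the Large White mean and passed the filter only through the other breeds, so its value is given without a p. GRB14, the closest relative of GRB10 in the table, was below the filter, at 0.139, 0.364 and 0.111 FPKM in Tibetan and 0.481, 0.678 and 1.12 in Large White libraries, so its values did not rise with those of GRB10.

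Downstream of the receptors, individual genes shared the direction of GRB10. PIK3R1, the main regulatory subunit of the PI3 kinase, had 12.3, 13.1 and 14.3 FPKM in Tibetan and 7.73, 6.63 and 6.91 in Large White libraries (relative 1.59, SE 0.17, adjusted p = 0.00188), whereas its relative PIK3R2 fell from 17.9 ± 0.699 to 1.40 ± 0.122 FPKM (relative -2.20, adjusted p = 5.56e-08). AKT2, the AKT kinase of insulin-responsive tissue, was higher than in Large White libraries by a relative 1.28 (adjusted p = 0.00201). Against Wujin libraries AKT2 was called higher only with further scaling, as with median-ratio scaling (0.89, adjusted p = 0.000423 by limma), and not in the main fit. EIF4EBP1, which holds back translation when mTOR is inactive, had 296 ± 67.8 FPKM in Tibetan, 173 ± 19.6 in Wujin and 151 ± 20.1 in Large White libraries (relative 1.72, adjusted p = 0.00116).

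FOXO1, a transcription factor that insulin signalling keeps out of the nucleus, had 21.3, 9.91 and 9.23 FPKM in Tibetan libraries and at most 3.61 in the other breeds (relative 2.44, SE 0.26, adjusted p = 0.000329). SLC2A4, the insulin-regulated glucose transporter GLUT4 of mature muscle and fat, had 88.8, 63.4 and 83.7 FPKM in Tibetan, 1.43, 1.56 and 1.80 in Wujin, and 0.268, 0.365 and 0.0575 in Large White libraries (Tibetan minus Large White relative 6.78, SE 0.16). SLC2A4 was below 1 FPKM in Large White and passed the filter only through the other breeds. Both relative differences were above the 2.26 of GRB10, that of FOXO1 by less than its SE.

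**Figure D4:**
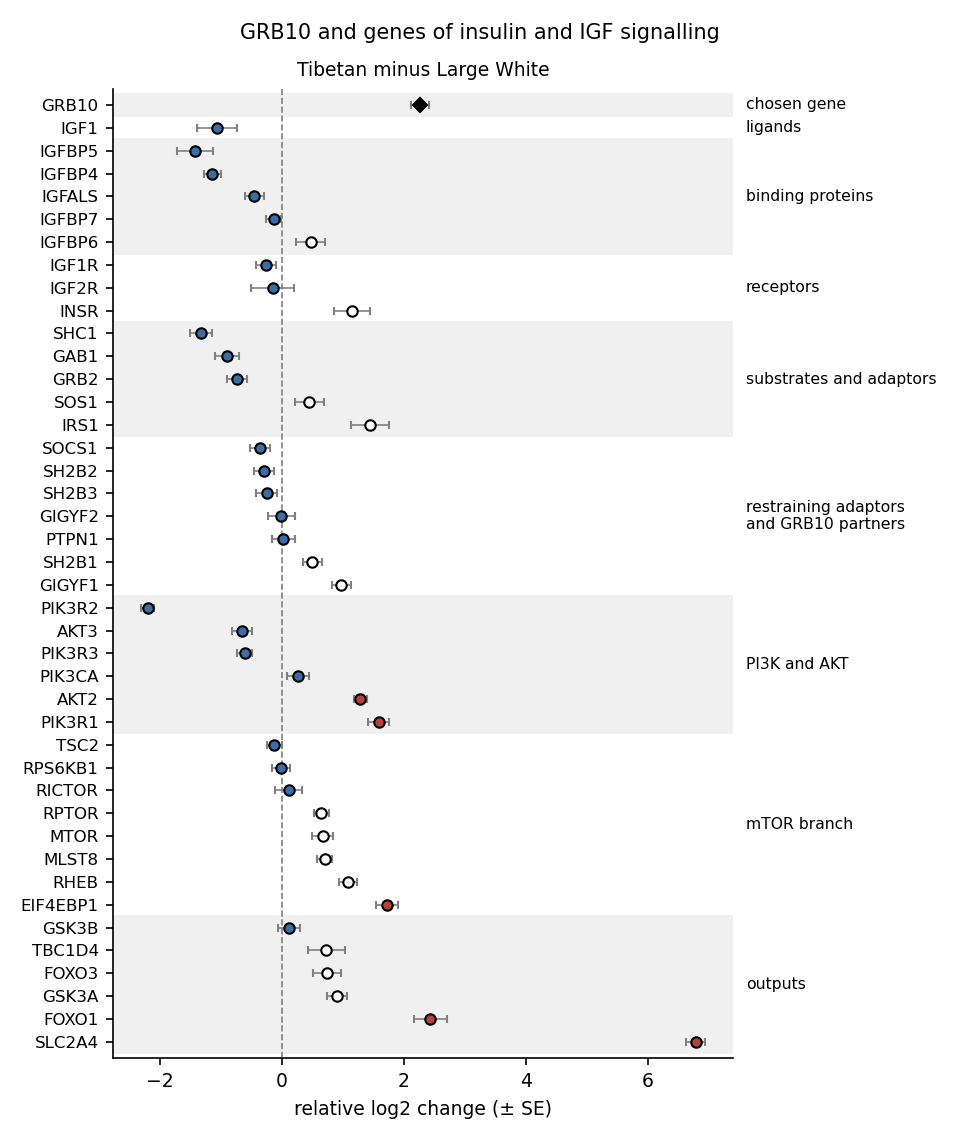
Relative log2 difference of GRB10 and the 41 tested insulin and IGF pathway genes for Tibetan against Large White libraries, grouped by role, with standard errors and the colours of the plot of imprinted genes (blue called lower, red called higher, white not called). SLC2A4 (6.78), FOXO1 (2.44) and GRB10 (2.26) are at the high end and PIK3R2 (-2.20) at the low end.

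Between Wujin and Large White, where GRB10 differed little, 2 of the 41 pathway genes were called, or 4.88% beside 6.52% of all entries, and both were higher, as were 1.67% of all entries, while 4.85% of all entries were lower. They were SLC2A4 (relative 1.28, adjusted p = 0.0116) and IGFALS (relative 0.95, adjusted p = 0.0341). SLC2A4 was not called without Large White 3 (adjusted p = 0.0651). IGFALS was not called without Tibetan 1, Wujin a, or Large White 1, 2 or 3, with an adjusted p of 0.0502, 0.0711, 0.0866, 0.109 and 0.142. The background of this comparison was itself unstable, with 855 entries called (219 higher, 636 lower) and 231 higher and 150 lower with median-ratio scaling. It came to 395 without Tibetan 1, 413 without Tibetan 3, 428 without Wujin 1, 141 without Wujin a, 1627 without Wujin b, and 155, 81 and 62 without Large White 1, 2 and 3.

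Markers of cell type and stage moved with both genes. With MEST, all 7 tested connective tissue genes and all 4 developmental sarcomere genes were called lower in Tibetan than in Large White libraries, beside 63.2% of all entries. The 6 tested cell cycle genes were lower as well. They were all below 1 FPKM in the Tibetan mean and passed the filter only through the other breeds, so they had to differ. The connective tissue sum ranged from 335 to 364 FPKM in Tibetan, from 3094 to 5610 in Wujin and from 5361 to 5999 in Large White libraries, and the cell cycle sum was 1.22 to 1.86, 57.5 to 79.4 and 107 to 113. With GRB10, 4 of 5 tested mature fast fibre genes reached 1 FPKM in the Tibetan and Large White means and were called higher, beside 13.0% of all entries. The other, PVALB, was also higher, but it passed the filter only through the Tibetan libraries, so it had to differ. No matched marker was at 0 in every library, and the part of these cells or stages in the MEST and GRB10 differences was not tested.

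Set against these sums, the levels of the pair gave different pictures. Per 1000 FPKM of the connective tissue genes, MEST was 0.692, 0.964 and 0.985 in Tibetan, 6.94, 7.08 and 6.80 in Wujin, and 8.55, 7.43 and 9.86 in Large White libraries, so it remained lower in the Tibetan libraries. Per 1000 FPKM of the developmental sarcomere genes it was 2.12, 4.07 and 3.69 in Tibetan, 1.73, 2.54 and 3.52 in Wujin, and 4.003, 4.45 and 5.39 in Large White libraries, so that Tibetan overlapped both other breeds, which did not overlap each other. Per 1000 FPKM of the cell cycle genes it was 189, 187 and 267 in Tibetan, against at least 374 in Wujin and at least 411 in Large White libraries. GRB10 per 1000 FPKM of the mature fast fibre genes was 2.75, 3.05 and 2.83 in Tibetan, 17.6, 15.8 and 15.7 in Wujin, and 29.7, 36.5 and 41.5 in Large White libraries, so that Tibetan muscle, highest by level, was lowest by this quotient. By the sums used for MEST, the Tibetan libraries were highest for GRB10. Its quotient was at least 78.3 there and at most 3.57 elsewhere for connective tissue genes. It was at least 306 and at most 1.18 for developmental sarcomere genes, and at least 15214 and at most 192 for cell cycle genes. These marker genes were themselves chosen with earlier results known, and the quotients are descriptions.

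**Figure D5:**
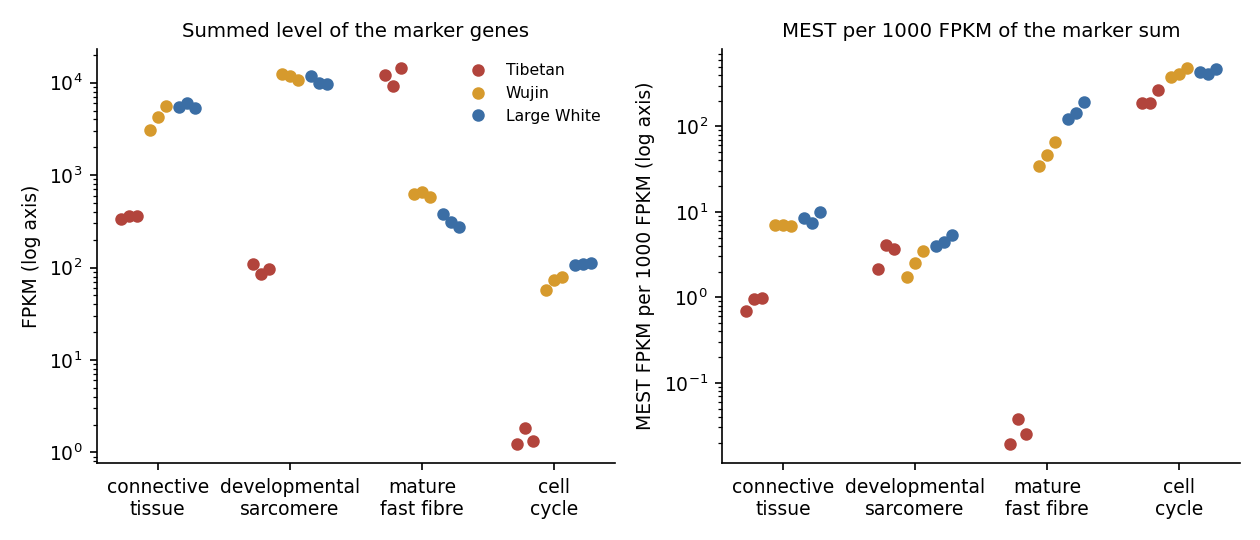
Summed FPKM of 4 groups of marker genes (left) and MEST per 1000 FPKM of each sum (right) in the 9 libraries, on log axes, with 1 point per library coloured by breed. On the right the Tibetan libraries overlap those of both other breeds for the developmental sarcomere sum, from 1.73 to 5.39, while for the other sums the Tibetan libraries are lowest.

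Genes with a pattern like that of MEST were many, and like that of GRB10 few. Among 4645 genes with a symbol and a mean of at least 5 FPKM, 289 (6.22%) had a Pearson r of at least 0.99 with MEST over the 9 libraries on the log2(FPKM + 1) scale, against 11 (0.237%) for GRB10. These coefficients follow the breed means and share each library's total. Nearest to MEST were GPRASP2, ANGPTL6, CENPF, CDK1 and CCDC88A, each with r = 0.999. CDK1, the kinase that drives entry into mitosis, had 0.211 ± 0.0318 FPKM in Tibetan, 6.37 ± 1.03 in Wujin and 9.77 ± 0.490 in Large White libraries (SD, n = 3), and CENPF, a kinetochore protein of dividing cells, had 0.0841 ± 0.0322, 6.79 ± 0.965 and 8.83 ± 0.948 FPKM.

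Among the 5 genes nearest to GRB10 were EFCAB7 (r = 0.997), PGK1 (0.996), GPI (0.995) and RBM38 (0.994). PGK1 and GPI, which encode enzymes of glycolysis, had 743 ± 171 and 505 ± 132 FPKM in Tibetan libraries against 110.0 ± 2.46 and 55.4 ± 1.46 in Large White libraries. RBM38, an RNA-binding protein gene, had 85.1 ± 20.3 FPKM in Tibetan, 10.3 ± 1.08 in Wujin and 10.7 ± 0.806 in Large White libraries (SD, n = 3). With Spearman's coefficient none of the 5 nearest genes was shared for either gene, and with median-ratio scaling 1 was shared for MEST and 3 for GRB10, so the names depend on the measure.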

How the data were processed

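RNA-seq of 9 embryonic longissimus dorsi libraries was taken from the deposited table, in which the authors give FPKM per gene and library, per the file headers. Libraries were made from total RNA with a TruSeq RNA kit, per the labels' protocols. The submitters' processing notes list TopHat without a version. For the quantifier, genome build and annotation, nothing is given in the sources used here. Fragment counts are unknown, so no counting interval is given.

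Columns were matched to samples by header. A pair of Wujin columns share 1 header and were taken as replicates with no number, and 0 columns of sample values were left unused. Symbols were found for 11179 of 19643 entries (56.9%). RefSeq genes of the assembly Sscrofa11.1 gave neighbour names only.

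The 13106 entries whose mean reached 1 FPKM were fitted as log2(FPKM + 1) with limma 3.58.1 in R 4.3.3, with 3 breed means over all 9 libraries, a trended prior variance and Benjamini-Hochberg adjustment, and called at an adjusted p under 0.05. The procedure was tested on simulated data. MEST, GRB10, the measured members of the imprinted, insulin and IGF, marker and neighbour lists, and the 5 genes nearest in pattern to either gene were eligible to be named. 1 gene near in pattern is not reported here. These genes and lists were chosen with earlier results of these data known. Alternatives varied the pseudocount, filter, scaling, libraries and block.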

Additional observations from a re-analysis of the deposited data

How the results depend on the processing

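The directions of MEST and GRB10 between Tibetan and the other breeds held under every alternative run. For Tibetan minus Large White, MEST was -6.88 with a pseudocount of 0.1, -3.32 with 5, -4.66 with median-ratio scaling and -4.72 with quantile normalization, and GRB10 was 1.25 with a pseudocount of 5, 2.42 and 1.95. For Tibetan minus Wujin, MEST was -6.16, -2.69, -4.19 and -4.09, and GRB10 was 1.36, 2.35 and 1.92, and 1.42 with equal FPKM totals. GRB10 in Wujin minus Large White became 0.067 and 0.033 with median-ratio scaling and quantile normalization. The Tibetan log2 ratio was -4.73 with 1 added to both FPKM. Leaving out 1 library gave -5.27 to -5.15 and -4.74 to -4.34 for MEST and 1.36 to 1.62 and 1.51 to 1.77 for GRB10.

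With a minimum mean of 5 FPKM, fewer entries were tested, and calls came to 5533 (Tibetan and Large White), 5181 (Tibetan and Wujin) and 402 (Wujin and Large White), with 9 and 9 imprinted genes and 2 and 2 neighbours against the Tibetan breed. Between Wujin and Large White, calls were 270 and 1831 with pseudocounts of 0.1 and 5, 381 with median-ratio scaling, 281 with the 6 libraries alone, and 62 to 1627 with 1 library left out. There, imprinted genes numbered 1 with a pseudocount of 5, 1 with no filter, and 0 to 2 with 1 library left out. Pathway genes numbered 1 with 0.1, 1 with the higher minimum, 0 with 6 libraries, and 0 to 3. Markers numbered 3 and 11 with 0.1 and 5, 4 with median-ratio scaling, 3 with 6 libraries, and 2 to 11. The cause was not tested.

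Among named genes, Tibetan minus Large White turned positive with median-ratio scaling for ASB4 (0.67), UBE3A (0.63), TFPI2 (0.76), IGFBP6 (0.64), IGFBP7 (0.059), SH2B1 (0.59), PTPN1 (0.14) and GIGYF2 (0.10), and with quantile normalization for ASB4 (0.57), UBE3A (0.21), TFPI2 (0.42), DDC (0.14), IGFBP6 (0.15) and SH2B1 (0.48). SH2B1 in Tibetan minus Wujin became 0.12 and 0.019.

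Same-numbered Tibetan and Large White libraries did not deviate together (r = 0.013, -0.023 and -0.076), so the numbers were not taken as pairs. A fit of those 6 libraries alone gave 10187 calls in place of 9983, and 10025 with a replicate block. IRS1 was called with the block (adjusted p = 0.0356) and not without it (0.0841). Wujin comparisons could not be blocked, since 2 columns carry no number. With FPKM alone the reads behind the Tibetan MEST level are unknown.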
